A study of Saccharomyces cerevisiae with 12 samples.

Results

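The genes described here are 33 genes of Saccharomyces cerevisiae that take up sulfate, reduce it to sulfide, build homocysteine, cysteine, methionine and S-adenosylmethionine from it, and control these steps. The rule lists them by standard gene name and uses no measured value, although the list was drawn up with earlier results of these arrays known. All 33 had 1 probe each among the 6256 gene probes of a single-colour Agilent expression array. All 33 were detected on all 12 arrays, none was saturated, and all are among the 6081 genes that passed the filter on dim probes. By role they are 5 regulators, 2 sulfate permeases, 4 genes of sulfate activation and reduction, 4 of sulfite reductase and its siroheme cofactor and 2 of sulfide incorporation. The others are 4 genes of methyl group supply and methionine synthase, 4 of transsulfuration, 4 of S-adenosylmethionine synthesis and recycling, and 4 permeases for methionine and its derivatives.

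The arrays measured total RNA of 3 strains derived from MT8-1X, which the series title calls xylose-fermenting. The strains were a control strain, a strain labelled TAL-expressing and a strain labelled TAL-ADH expressing. Each was sampled after 6 h with 0 or 70 mM furfural, an aldehyde formed when plant biomass is broken down and an inhibitor of yeast fermentation. There were 6 groups of 2 arrays, called run 1 and run 2. The labels used here do not name the introduced genes or the promoters that drive them, and do not say whether the runs were separate cultures. The p-values therefore measure only the spread between these arrays, which may be technical.

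In yeast, sulfate enters through the permeases Sul1 and Sul2, is activated with ATP, and is reduced through sulfite to sulfide at the cost of NADPH. Sulfide joins O-acetylhomoserine to give homocysteine, which is methylated to methionine or passed by transsulfuration to cysteine and glutathione. The transcription factor Met4 switches the genes on when methionine and cysteine run low. It reaches DNA through Cbf1, Met28, Met31 and Met32, and the F-box protein Met30 holds it back by ubiquitination, while MET30 is itself a target of Met4. Furfural is known to be reduced in the yeast cell by NADPH- and NADH-dependent enzymes.

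Levels are log2 of the processed spot intensity relative to the 75th percentile of the same array, so 0 is a bright probe and a difference of 1 is a factor of 2. A level compares arrays for 1 gene, says nothing about 1 gene against another, and cannot tell more RNA of a gene per cell from more cells that make it. Well above background were 94.8% to 97.9% of the gene spots on each array, and the median standard error (SE) of a comparison of groups was 0.309 on the log2 scale. The arrays did not divide by the labelled dose. On the main axis of variation over all genes, which held 61.5% of the variance, values of 31.6 to 54.9 were found for both TAL groups and the control strain with furfural. The control strain without furfural and both TAL-ADH groups had values of -47.0 to -39.1. Across genes the mean profile labelled TAL 0 mM had r = 0.969 with TAL 70 mM and 0.872 with control 0 mM. The mean profile labelled TAL-ADH 70 mM had r = 0.992 with control 0 mM, 0.987 with TAL-ADH 0 mM and 0.861 with control 70 mM. TAL1, below, had higher levels under both TAL labels than in the control strain at a like dose, though not every difference passed. TAL 0 mM and TAL-ADH 70 mM both carry a TAL label, so TAL1 cannot tell one from the other. Whether the labels or the strains account for the division was not tested. Results that use either group, TAL 0 mM or TAL-ADH 70 mM, called the doubted groups here, are given under the labels as deposited. The furfural comparison of the control strain uses the mean of neither.

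The 12 arrays lay on 3 slides, and each slide held 2 groups. Control 0 mM shared a slide with TAL-ADH 70 mM, control 70 mM with TAL 70 mM, and TAL 0 mM with TAL-ADH 0 mM. A comparison within 1 slide is therefore possible for TAL against control with furfural and for TAL-ADH against TAL without it. Elsewhere, slide and group cannot be told apart. The transaldolase gene TAL1, which the label TAL may refer to, had levels of 2.34 and 2.81 in control 0 mM, 0.54 and 0.88 in control 70 mM, and 2.78 to 4.46 on the 8 arrays of the other strains. On the arrays of a like dose TAL1 lay above the control strain under both other strain labels, with no overlap. At 0 mM the difference was 1.13 ± 0.33 log2 for TAL (limma adjusted p = 0.0332) and 1.23 ± 0.33 for TAL-ADH, which did not pass (0.3925). At 70 mM it was 2.11 ± 0.33 for TAL, which did not pass (0.0610), and 3.31 ± 0.33 for TAL-ADH (1.70e-04). In the control strain TAL1 itself changed by -1.87 ± 0.33 with furfural (0.00316). The alcohol dehydrogenase gene ADH1, which ADH may refer to, ranged from 4.37 to 6.38 over the 12 arrays, with overlap between the control and TAL-ADH strains at 0 mM. TAL-ADH minus TAL at 70 mM was 1.55 ± 0.42 log2 for ADH1 (limma adjusted p = 0.0205). TAL minus control at 0 mM was -1.38 ± 0.42 (0.0353). The other comparisons of strains at a like dose did not pass for ADH1.

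Most of the 33 genes were high on 3 groups of arrays and low on the other 3. In 26 of 33 genes the 3 highest group means were those of TAL 0 mM, TAL 70 mM and control 70 mM, a set found in 22.5% of all 6081 genes. With each gene centred on its own mean over the 12 arrays, the mean over the 33 genes was 0.93 and 0.89 on the control 70 mM arrays, 1.01 and 1.20 on TAL 70 mM, and 0.79 and 0.61 on TAL 0 mM. It was -0.75 and -1.20 on control 0 mM, -0.75 and -1.25 on TAL-ADH 0 mM, and -0.41 and -1.07 on TAL-ADH 70 mM. The same 3 groups are high on the main axis of all genes. MET7 and SAM4 had the opposite set of 3 groups as their highest, and MET31, MET22, MET12, STR2 and SAM1 had a mixed set.

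**Figure D1:**
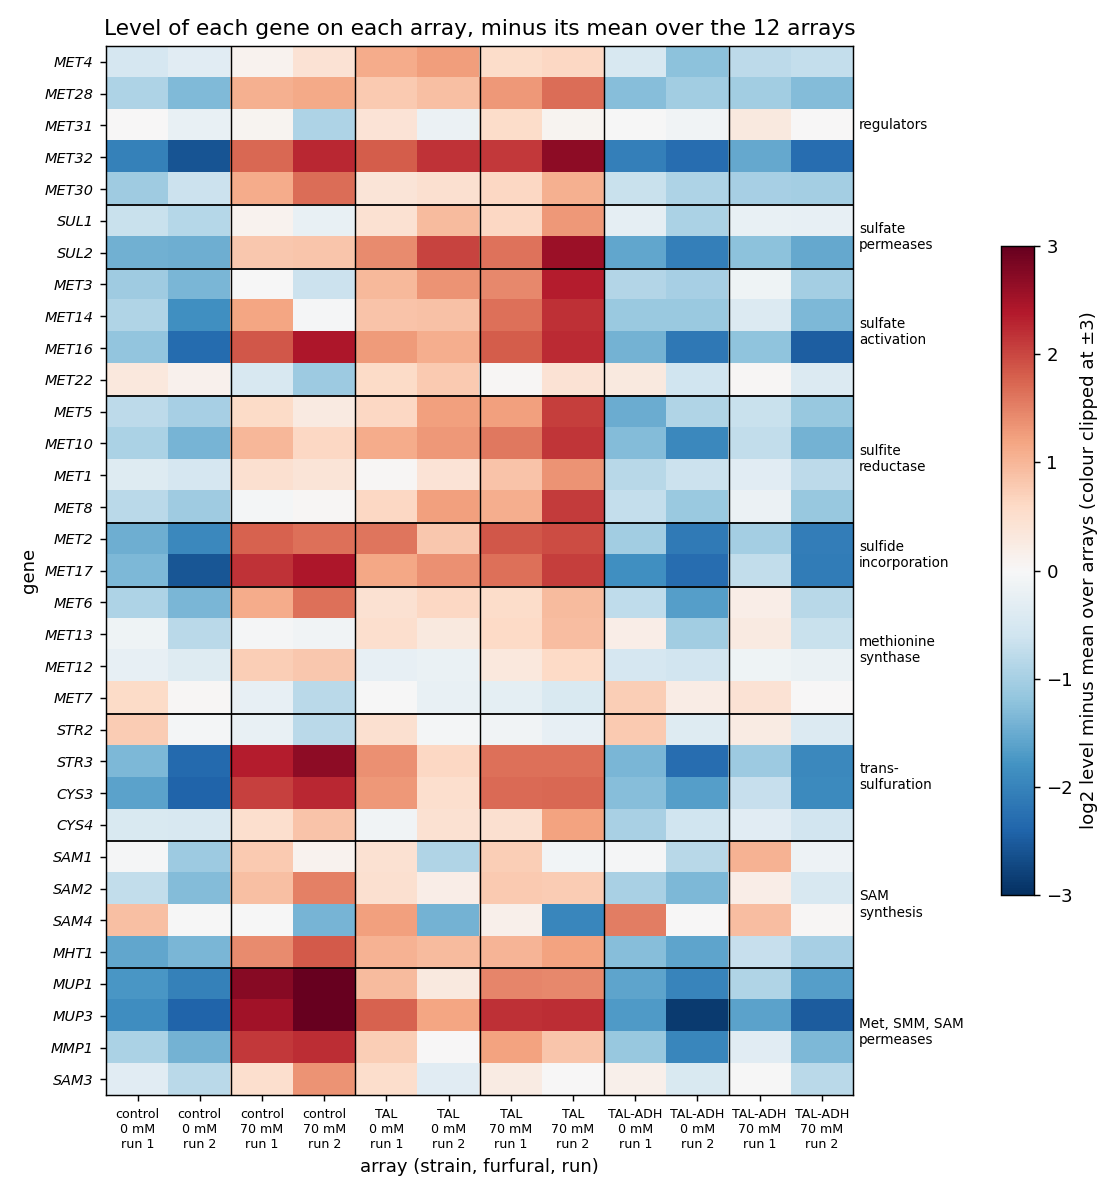
Levels of the 33 genes (rows, by role) on the 12 arrays (columns, by group and run), each gene centred on its mean over the arrays; colour is the log2 difference from that mean. In 26 of 33 genes the columns of control 70 mM, TAL 0 mM and TAL 70 mM hold the 3 highest group means.

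For the effect of 70 mM furfural, the control strain gives the comparison whose groups are not doubted, though the spread in its tests is estimated from all 12 arrays. Its groups lay on different slides, so slide and furfural cannot be told apart in it. In the control strain 22 of the 33 genes rose with furfural, and 1, MET22, fell. Of all 6081 genes, 13.9% rose and 21.5% fell at the same threshold, a Benjamini-Hochberg adjusted p under 0.05 in limma, so 35.5% were called in either direction. The 22 are 66.7% of the 33 genes. The median change was 1.94 log2 over the 33 genes and -0.19 over all genes. The 2 arrays with furfural did not overlap the 2 without it in 32 of 33 genes and in 71.2% of all genes. Fitted without the 4 doubted arrays, 22 of 33 rose and 0 fell, where 12.3% of all genes rose and 29.7% changed in either direction. The largest rises were those of the methionine permease genes MUP3 and MUP1, which ranked 22 and 25 from the top of the 6081 genes.

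**Figure D2:**
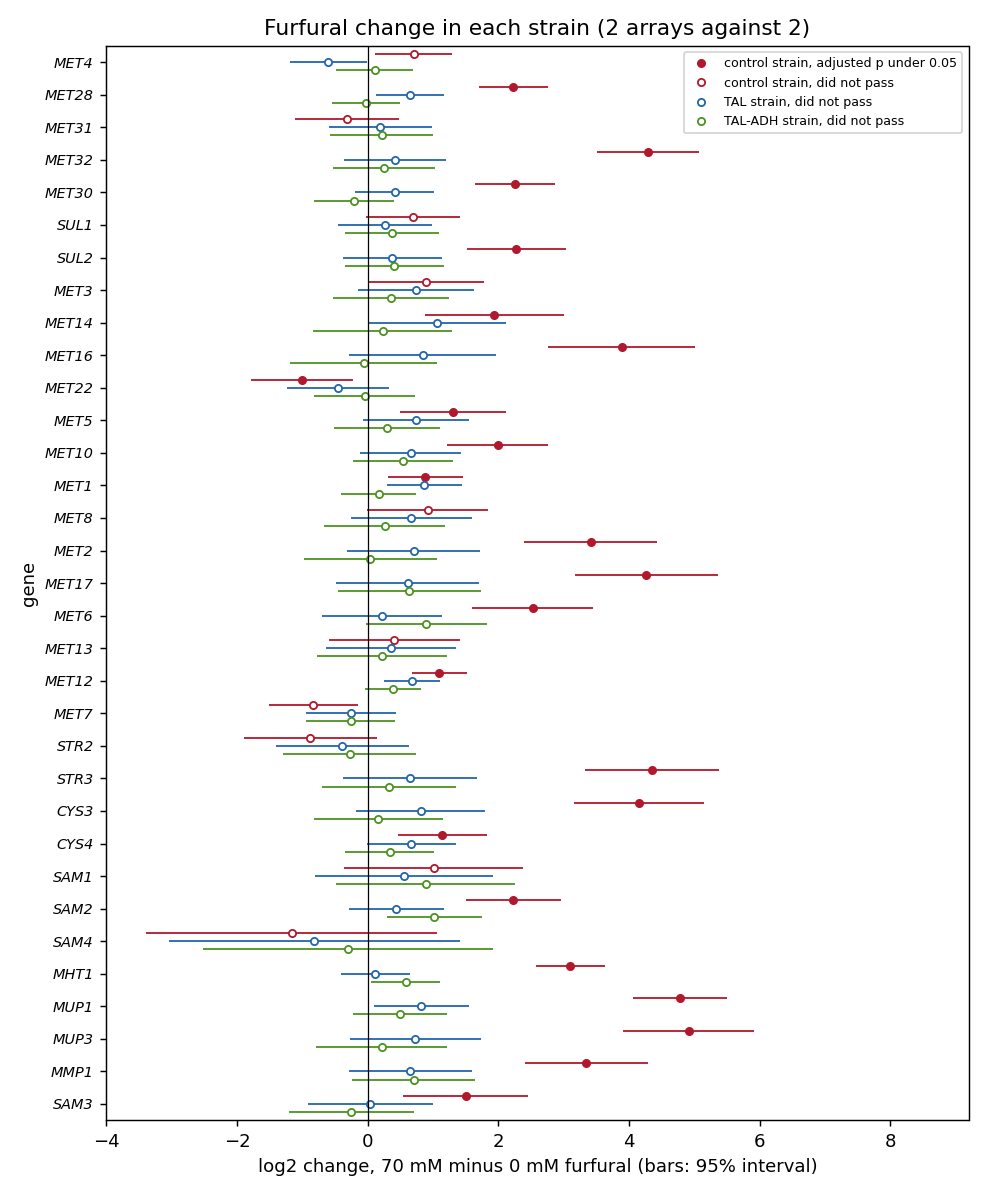
Change with furfural (log2, 70 mM minus 0 mM) of the 33 genes in the control strain (red), the TAL strain (blue) and the TAL-ADH strain (green), with 95% intervals from the limma fit, 2 arrays against 2. Filled points passed an adjusted p of 0.05, which 23 genes did in the control strain and none did in the other strains.

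Among the regulators, MET32, MET30 and MET28 rose and MET4 and MET31 did not pass. The level of MET32 on the arrays of runs 1 and 2 was -2.55 and -3.10 in the control strain without furfural, 1.21 and 1.74 in the control strain with it, 1.29 and 1.64 under the label TAL 0 mM, 1.59 and 2.17 under TAL 70 mM, -2.58 and -2.80 under TAL-ADH 0 mM and -2.07 and -2.81 under TAL-ADH 70 mM. MET32 encodes a zinc-finger protein that brings Met4 to its target promoters. Both control arrays with furfural lay far above both without it, and the TAL arrays of both doses lay with the high ones. The change in the control strain was 4.30 ± 0.35 log2 (SE; adjusted p = 6.87e-05), a 19.7-fold rise. MET30, the ubiquitin ligase subunit that restrains Met4, had levels of 1.17 and 1.57 in control 0 mM, 3.34 and 3.91 in control 70 mM, 2.62 and 2.69 in TAL 0 mM, 2.84 and 3.30 in TAL 70 mM, 1.55 and 1.29 in TAL-ADH 0 mM and 1.22 and 1.20 in TAL-ADH 70 mM. It rose by 2.25 ± 0.27 log2 (adjusted p = 4.01e-04) and its highest arrays were those of control 70 mM. MET28, a bZIP partner of Met4, went from -0.93 and -1.32 to 1.07 and 1.14 and rose by 2.23 ± 0.23 (adjusted p = 2.17e-04).

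The activator gene MET4 itself had levels of -0.75 and -0.58 in control 0 mM, -0.12 and 0.20 in control 70 mM, 0.89 and 1.01 in TAL 0 mM, 0.30 and 0.39 in TAL 70 mM, -0.72 and -1.46 in TAL-ADH 0 mM and -1.02 and -0.95 in TAL-ADH 70 mM. Its control arrays did not overlap, but the change of 0.70 ± 0.26 log2 did not pass (adjusted p = 0.0636), and its highest arrays were the TAL 0 mM pair. MET31, which encodes a zinc-finger protein closely related to Met32, had a change of -0.32 ± 0.35 (adjusted p = 0.509). Its levels ran from -2.33 to -0.86 over the 12 arrays, and its groups overlapped in this comparison.

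Of the sulfate permease genes, SUL2 rose and SUL1 did not pass. SUL2 had levels of -1.26 and -1.30 in control 0 mM, 0.98 and 1.01 in control 70 mM, 1.59 and 2.19 in TAL 0 mM, 1.81 and 2.73 in TAL 70 mM, -1.38 and -1.87 in TAL-ADH 0 mM and -1.07 and -1.36 in TAL-ADH 70 mM. The control arrays were separated by dose, and the TAL arrays of both doses exceeded every control array. The rise in the control strain was 2.28 ± 0.34 log2 (adjusted p = 0.00123). SUL1 had a change of 0.70 ± 0.32 (95% interval -0.03 to 1.42, adjusted p = 0.120).

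Sulfate activation and reduction were not uniform. MET16, which encodes the reductase of phosphoadenylyl sulfate, had levels of -0.76 and -1.89 in control 0 mM, 2.29 and 2.84 in control 70 mM, 1.70 and 1.52 in TAL 0 mM, 2.24 and 2.66 in TAL 70 mM, -0.99 and -1.73 in TAL-ADH 0 mM and -0.78 and -2.06 in TAL-ADH 70 mM. Its 4 TAL arrays and the control arrays with furfural lay above the other 6 with no overlap. It rose by 3.89 ± 0.50 log2 in the control strain (adjusted p = 5.77e-04). MET14, the gene of the kinase that makes phosphoadenylyl sulfate, rose by 1.94 ± 0.47 (adjusted p = 0.0123), but did not pass without control 0 mM run 2 (adjusted p = 0.0937) or without control 70 mM run 1 (0.0646). MET3, the gene of ATP sulfurylase and so of the first step, had levels of -2.20 and -2.50 in control 0 mM, -1.13 and -1.78 in control 70 mM, -0.16 and 0.22 in TAL 0 mM, 0.31 and 1.23 in TAL 70 mM, -2.00 and -2.12 in TAL-ADH 0 mM and -1.26 and -2.14 in TAL-ADH 70 mM. In the control strain its change was 0.89 ± 0.39 (adjusted p = 0.108), and every TAL array, at either dose, lay above every control array. MET22, whose product degrades the nucleotide left over by the reductase step, fell by 1.01 ± 0.34 (adjusted p = 0.0474). That call was lost without control 0 mM run 1, control 0 mM run 2 or control 70 mM run 2, at adjusted p of 0.196, 0.118 and 0.245. It was lost as well under quantile normalization (0.223) and in 10 more of the 21 alternatives run.

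The sulfite reductase genes rose moderately. MET10, one of its subunits, went from 0.13 and -0.30 to 2.10 and 1.71 in the control strain and rose by 1.99 ± 0.34 log2 (adjusted p = 0.00249). MET5, the other subunit, rose by 1.31 ± 0.36 (adjusted p = 0.0204), a call lost without any 1 of the 4 control arrays (adjusted p of 0.0533 to 0.106). For the siroheme genes, MET1 rose by 0.88 ± 0.25 (adjusted p = 0.0244), a call likewise lost without any 1 of the 4 control arrays (0.0711 to 0.119). MET8 had a change of 0.92 ± 0.41 and did not pass (adjusted p = 0.112).

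MET17 and MET2, which make homocysteine from sulfide and supply its carbon chain, both rose. MET17 encodes the sulfhydrylase that makes homocysteine from sulfide and O-acetylhomoserine. Its level on the arrays of runs 1 and 2 was 1.04 and -0.17 in the control strain without furfural, 4.58 and 4.83 in the control strain with it, 3.56 and 3.76 under the label TAL 0 mM, 4.06 and 4.48 under TAL 70 mM, 0.56 and 0.12 under TAL-ADH 0 mM and 1.65 and 0.31 under TAL-ADH 70 mM. The control arrays differed by dose with a wide gap, and the run 1 arrays of the low groups stood above their run 2 arrays. The rise in the control strain was 4.27 ± 0.49 log2, 19.3-fold (adjusted p = 3.30e-04). MET2, which encodes the enzyme that makes O-acetylhomoserine, went from -0.94 and -1.40 to 2.31 and 2.18 and rose by 3.41 ± 0.45 (adjusted p = 6.90e-04).

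In methyl group supply, MET6 and MET12 rose and MET13 and MET7 did not pass. MET6, the gene of methionine synthase, had levels of -1.84 and -2.28 in control 0 mM, 0.20 and 0.73 in control 70 mM, -0.45 and -0.29 in TAL 0 mM, -0.36 and 0.04 in TAL 70 mM, -1.68 and -2.55 in TAL-ADH 0 mM and -0.70 and -1.73 in TAL-ADH 70 mM. Its rise in the control strain was 2.52 ± 0.41 log2 (adjusted p = 0.00193). MET12 and MET13 both encode methylenetetrahydrofolate reductases. MET12 rose by 1.10 ± 0.19 (adjusted p = 0.00259), while MET13, with 0.41 ± 0.44, did not pass (adjusted p = 0.496). MET7, the folylpolyglutamate synthetase gene, had a negative change of -0.83 ± 0.30 (adjusted p = 0.0587).

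In transsulfuration, 3 of 4 genes rose. STR3 encodes the lyase that takes cystathionine to homocysteine, and its level was -2.76 and -3.74 in control 0 mM, 0.95 and 1.26 in control 70 mM, -0.04 and -0.80 in TAL 0 mM, 0.22 and 0.23 in TAL 70 mM, -2.80 and -3.71 in TAL-ADH 0 mM and -2.50 and -3.36 in TAL-ADH 70 mM. It rose by 4.35 ± 0.45 log2 in the control strain (adjusted p = 2.20e-04). CYS3 encodes the lyase that takes cystathionine to cysteine, and its level was 1.62 and 0.81 in control 0 mM, 5.27 and 5.48 in control 70 mM, 4.51 and 3.72 in TAL 0 mM, 4.92 and 4.93 in TAL 70 mM, 1.95 and 1.56 in TAL-ADH 0 mM and 2.53 and 1.31 in TAL-ADH 70 mM. It rose by 4.16 ± 0.44, 17.8-fold (adjusted p = 2.29e-04). In both genes the control 70 mM pair was the highest of the 6 groups. CYS4, which makes cystathionine from homocysteine, rose less, by 1.14 ± 0.30 (adjusted p = 0.0178), a call lost without control 0 mM run 1 (0.0802), control 0 mM run 2 (0.0837) or control 70 mM run 2 (0.0983). STR2, which makes cystathionine from cysteine, had a negative change of -0.88 ± 0.45 and did not pass (adjusted p = 0.158).

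S-adenosylmethionine is made by 2 near-identical synthetases, and signal may be shared between the probes of SAM1 and SAM2. SAM2 went from 0.17 and -0.39 to 1.82 and 2.42 and rose by 2.23 ± 0.32 log2 (adjusted p = 0.00110), and SAM1 had a change of 1.01 ± 0.61 (95% interval -0.36 to 2.38, adjusted p = 0.222). MHT1 and SAM4 both encode homocysteine methyltransferases, which use S-methylmethionine and S-adenosylmethionine as their methyl donors. MHT1 had levels of -2.97 and -2.79 in control 0 mM, 0.01 and 0.43 in control 70 mM, -0.36 and -0.46 in TAL 0 mM, -0.38 and -0.20 in TAL 70 mM, -2.67 and -3.00 in TAL-ADH 0 mM and -2.09 and -2.41 in TAL-ADH 70 mM. It rose by 3.10 ± 0.23 (adjusted p = 6.05e-05) with no overlap between the 6 high and the 6 low arrays. SAM4 had levels of -0.75 and -1.66 in control 0 mM, -1.68 and -3.06 in control 70 mM, -0.43 and -3.07 in TAL 0 mM, -1.52 and -3.61 in TAL 70 mM, -0.13 and -1.64 in TAL-ADH 0 mM and -0.73 and -1.64 in TAL-ADH 70 mM, and its change of -1.16 ± 0.99 did not pass (adjusted p = 0.381). Run 2 of SAM4 lay below run 1 in all 6 groups, as it did for MET31, MET7, STR2 and SAM1, and no gene had run 2 higher in all 6.

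All 4 permease genes for methionine and its derivatives rose. The level of MUP1 on the arrays of runs 1 and 2 was 0.55 and 0.27 in the control strain without furfural, 5.04 and 5.33 in the control strain with it, 3.26 and 2.60 under the label TAL 0 mM, 3.76 and 3.74 under TAL 70 mM, 0.72 and 0.33 under TAL-ADH 0 mM and 1.40 and 0.64 under TAL-ADH 70 mM. MUP1 encodes the high-affinity methionine permease. Its control arrays with furfural were the highest of all and those without among the lowest, and the TAL arrays of both doses lay between. The rise in the control strain was 4.78 ± 0.32 log2, 27.4-fold (adjusted p = 3.61e-05). MUP3, a low-affinity methionine permease gene, had levels of -0.83 and -1.37 in control 0 mM, 3.56 and 4.07 in control 70 mM, 2.80 and 2.22 in TAL 0 mM, 3.23 and 3.25 in TAL 70 mM, -0.66 and -1.83 in TAL-ADH 0 mM and -0.58 and -1.47 in TAL-ADH 70 mM. It rose by 4.92 ± 0.44, 30.2-fold (adjusted p = 1.06e-04). MMP1, the S-methylmethionine permease gene, had levels of -2.16 and -2.61 in control 0 mM, 0.92 and 1.00 in control 70 mM, -0.46 and -1.21 in TAL 0 mM, 0.01 and -0.37 in TAL 70 mM, -2.34 and -3.17 in TAL-ADH 0 mM and -1.54 and -2.56 in TAL-ADH 70 mM, and rose by 3.35 ± 0.42 (adjusted p = 5.05e-04). SAM3, the S-adenosylmethionine permease gene, rose by 1.50 ± 0.42 (adjusted p = 0.0232), a call lost without control 0 mM run 1 (0.0571), control 0 mM run 2 (0.132) or control 70 mM run 2 (0.146). In the RefSeq gene order MMP1 neighbours MHT1 on chromosome XII and SAM3 neighbours SAM4 on chromosome XVI. The first pair rose together, while in the second only SAM3 passed.

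**Figure D3:**
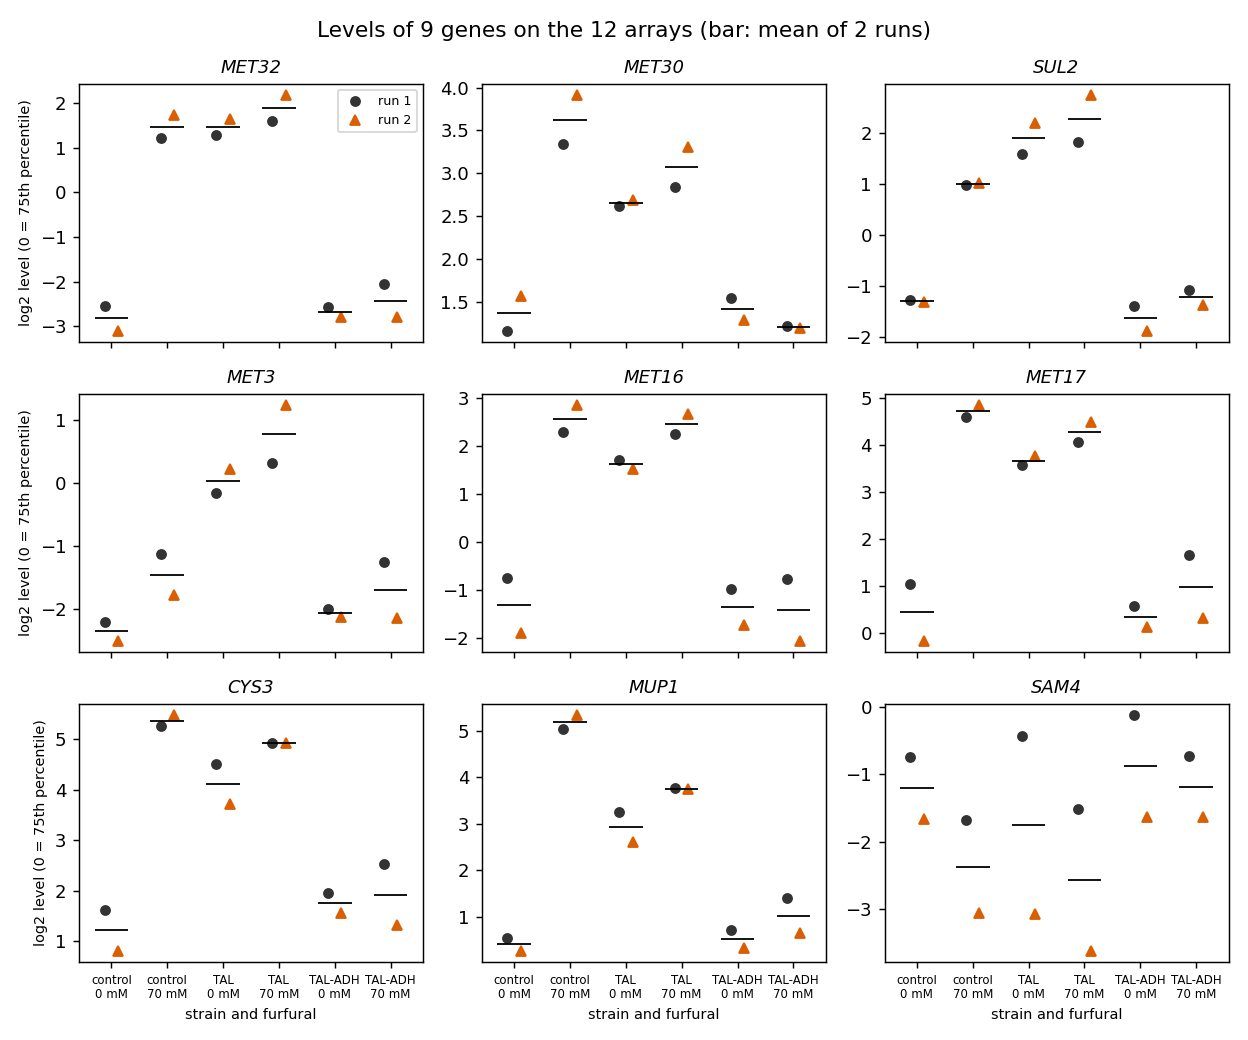
Levels (log2 relative to the 75th percentile of the array) of 9 of the 33 genes on each of the 12 arrays, by group; points are single arrays and bars the mean of the 2. For MUP1 the control 70 mM arrays, at 5.04 and 5.33, lie above all others, while for MET3 the 4 TAL arrays do.

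Of 43 other genes of connected pathways, 42 could be tested in the control strain and BDS1 was not detected on any array. With furfural 11 rose and 4 fell, 26.2% and 9.52% of the 42, beside the 13.9% and 21.5% of all genes given above, with a median change of -0.04 log2 over the 42. In the scavenging of other sulfur sources 2 of 6 rose and none fell. They were YCT1, a cysteine transporter gene, by 3.14 ± 0.30 (adjusted p = 1.34e-04), and JLP1, a sulfonate dioxygenase gene, by 1.30 ± 0.41 (adjusted p = 0.0356). For glutathione synthesis and methionine sulfoxide reductases, 3 of 5 rose. GSH1, the gene of the first step of glutathione synthesis, rose by 2.58 ± 0.26 (adjusted p = 1.77e-04), GSH2, of the second step, by 0.93 ± 0.21 (adjusted p = 0.00903), and MXR1, a methionine sulfoxide reductase gene, by 2.33 ± 0.40 (adjusted p = 0.00255).

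One-carbon folate genes rose in 5 of 8 cases. The largest changes were those of ADE3, a folate-interconverting enzyme, at 1.45 ± 0.32 log2 (adjusted p = 0.00744), and of the glycine cleavage genes GCV2, at 1.37 ± 0.45 (0.0406), and GCV3, at 1.34 ± 0.31 (0.00942). Among Met4 partners and ubiquitin ligase subunits, 1 of 6 rose and 1 fell. CDC34, the ubiquitin-conjugating enzyme that works with the Met30 ligase, rose by 1.64 ± 0.30 (adjusted p = 0.00361), and GCN4, the general activator of amino acid synthesis, fell by 0.79 ± 0.23 (adjusted p = 0.0264). In methionine salvage and polyamine synthesis none of 11 rose and 3 fell. These were SPE4, which makes spermine, by 1.00 ± 0.26 (adjusted p = 0.0164), and the salvage genes MDE1, by 0.92 ± 0.20 (0.00835), and MEU1, by 0.77 ± 0.19 (0.0115). No gene of the 6 that supply homoserine passed, and all 6 had negative changes, of -1.35 to -0.40. The count of 15 called pathway genes fell when either control 0 mM array or control 70 mM run 2 was left out. In each of these cases the number over all genes fell as well. The calls of YCT1, GSH1, MXR1 and CDC34 passed in all 21 alternatives, and each of the other 11 was lost without at least 1 control array.

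In the TAL strain 0 of 33 genes passed with furfural, where 0.0987% of all genes did. At an unadjusted p under 0.05, 5 of the 33 passed in limma, against 13.8% of all genes. The median change was 0.61 log2 over the 33 genes and -0.08 over all, and the doses did not overlap in 22 of 33 genes and 42.6% of all. MUP3 went from 2.80 and 2.22 to 3.23 and 3.25, a change of 0.73 ± 0.44 (95% interval -0.27 to 1.73, adjusted p = 0.521). MET32 had a change of 0.42 ± 0.35 (95% interval -0.37 to 1.20). In both genes the arrays labelled TAL 0 mM were already far above those of control 0 mM.

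In the TAL-ADH strain 0 of 33 genes passed, against 0.0329% of all genes, and 2 had an unadjusted p under 0.05, against 3.5%. The median change was 0.25 over the 33 genes and -0.0045 over all, and the doses did not overlap in 8 of 33 genes and 29.2% of all. MUP3 went from -0.66 and -1.83 to -0.58 and -1.47, a change of 0.22 ± 0.44 (95% interval -0.78 to 1.22). MET17 had a change of 0.64 ± 0.49 (95% interval -0.46 to 1.73). The upper bounds of these intervals lie below the lower bounds of the control strain.

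The difference between strains in the furfural change was tested itself. The change in the TAL strain was lower than in the control strain for 15 of 33 genes, where 5.03% of all genes were lower and 5.15% higher. The difference was -2.98 ± 0.33 log2 for MHT1 (adjusted p = 0.00137) and -3.96 ± 0.45 for MUP1 (0.00150). In the TAL-ADH strain it was lower for 13 of 33 genes, where 8.34% of all genes were lower and 11.3% higher. There the difference was -4.29 ± 0.45 for MUP1 (adjusted p = 7.87e-04) and -4.04 ± 0.49 for MET32 (0.00122). Between TAL-ADH and TAL 0 of 33 differed, and 0% of all genes did. At an unadjusted p under 0.05 this was 0 of 33 genes, and 6.66% of all. Both differences from the control strain share its 4 arrays and each uses 1 pair of doubted arrays. The count of 15 fell without either control 0 mM array, control 70 mM run 2, TAL 0 mM run 2 or TAL 70 mM run 1. In each of these cases the number over all genes fell as well.

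Taking furfural as 1 term over the 3 strains, 0 of 33 genes passed and 0% of all genes did. At an unadjusted p under 0.05, 27 of 33 genes passed, against 22.8% of all genes, with a median change of 0.82 log2 over the 33. The changes of MUP1 and MUP3 were 2.03 ± 0.61 and 1.95 ± 0.68 (adjusted p = 0.145 and 0.160). With the slide as a further term, 10 of the 33 had a positive furfural term that passed. Of all genes 2.07% did, and 3.52% passed in either direction. That estimate is built from within-slide differences, which include both doubted pairs of arrays. The groups that shared a slide were always of different strains, so it holds no comparison of doses within 1 strain. It also takes the furfural change as equal in the 3 strains. That change differed from the control strain's in 15 of the 33 genes for TAL and 13 for TAL-ADH. Without TAL-ADH 0 mM run 2 alone, 4 rose, where 2.3% of all genes rose and 7.08% changed in either direction.

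Without furfural, the TAL strain was higher than the control strain in 22 of 33 genes and lower in 0, where 14.9% of all genes were higher and 13.5% lower. The median difference was 1.69 log2, and 0.03 over all genes. MET32 was higher by 4.29 ± 0.35 (adjusted p = 5.50e-05), MUP3 by 3.62 ± 0.44 (4.98e-04), MET17 by 3.22 ± 0.49 (0.00155) and SUL2 by 3.18 ± 0.34 (2.37e-04). MET3, which had not passed with furfural in the control strain, was higher by 2.38 ± 0.39 (0.00253), and so was MET4, by 1.61 ± 0.26 (0.00226). This comparison rests on the doubted TAL 0 mM arrays and crosses slides.

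Without furfural, TAL-ADH and control did not differ at the threshold in any of the 33 genes, nor at an unadjusted p under 0.05, where 0.0164% and 7.05% of all genes did. The groups did not overlap in 5 of 33 genes and in 38.6% of all genes. The difference was 0.12 ± 0.32 log2 for MUP1 (95% interval -0.60 to 0.84) and 0.14 ± 0.35 for MET32 (95% interval -0.65 to 0.92), and over the 33 genes it ran from -0.44 to 0.54. Neither group is among the doubted arrays, but the comparison crosses slides.

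On 1 slide, TAL-ADH at 0 mM was lower than TAL at 0 mM in 24 of 33 genes and higher in 0, where 13% of all genes were lower and 12.7% higher. The median difference was -1.92 log2, and MET32 differed by -4.15 ± 0.35 (adjusted p = 8.09e-05) and SUL2 by -3.52 ± 0.34 (1.42e-04). The arrays labelled TAL 0 mM enter here too, and fewer of the 33 and fewer of all genes passed without TAL-ADH 0 mM run 2.

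At 70 mM furfural, TAL and control arrays lay on 1 slide and neither group is doubted. Here 0 of 33 genes passed, and 0.0822% of all genes did. At an unadjusted p under 0.05 there were 11 of 33, against 16.2% of all genes, and the groups did not overlap in 25 of 33 genes and 43.7% of all. By role the signs were not alike. Unadjusted, 2 of 2 sulfate permease genes, 3 of 4 genes of sulfate activation and reduction and 4 of 4 genes of sulfite reductase and siroheme had p under 0.05 with TAL higher. For 2 of 4 permease genes of methionine and its derivatives the TAL arrays were lower at that p, and in the other 5 roles 0 genes reached it.

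MET3 was -1.13 and -1.78 in control 70 mM and 0.31 and 1.23 in TAL 70 mM, a difference of 2.23 ± 0.39 log2 (adjusted p = 0.0837). The siroheme gene MET8 differed by 1.62 ± 0.41 (adjusted p = 0.139), and SUL2, at 0.98 and 1.01 against 1.81 and 2.73, by 1.28 ± 0.34 (0.144). MET16, the reductase gene of the same branch, differed by -0.11 ± 0.50 (95% interval -1.24 to 1.01). In the other direction MUP1, at 5.04 and 5.33 against 3.76 and 3.74, differed by -1.43 ± 0.32 (adjusted p = 0.112), and MMP1 by -1.14 ± 0.42 (0.226). None of these passed the adjusted threshold, and the median over the 33 genes was 0.17. With the run number as a block, MET3 (limma adjusted p = 0.0238), MUP1 (0.0257) and MMP1 (0.0440) did pass, where 5.89% of all genes did.

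**Figure D4:**
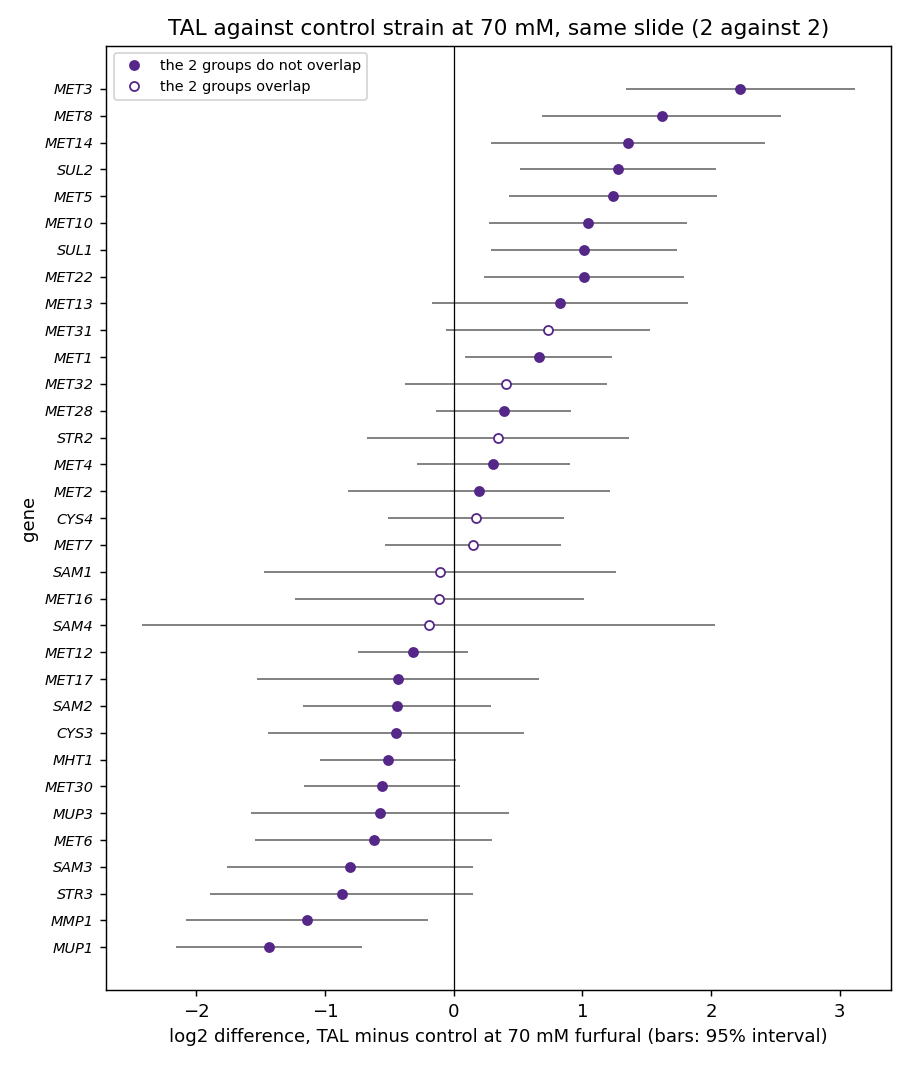
Difference between the TAL and control strains at 70 mM furfural (log2, TAL minus control, arrays of 1 slide) for the 33 genes, ordered by the difference and not by role, with 95% intervals from the limma fit, 2 arrays against 2. MET3 has the highest value, 2.23, and MUP1 the lowest, -1.43, and none passed an adjusted p of 0.05 in this fit, which has no run term.

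TAL-ADH at 70 mM was lower than control at 70 mM in 23 of 33 genes, where 14.1% of all genes were lower, and lower than TAL at 70 mM in 23 of 33, where 13.9% were lower. In both comparisons 0 of 33 were higher, where 22.6% and 18% of all genes were. MUP3 differed from control by -4.84 ± 0.44 log2 (adjusted p = 1.01e-04) and from TAL by -4.26 ± 0.44 (1.87e-04). MET3 differed from control by -0.24 ± 0.39 (95% interval -1.13 to 0.65) and from TAL by -2.47 ± 0.39 (adjusted p = 0.00179). Both comparisons use the doubted TAL-ADH 70 mM arrays, cross slides and share those 2 arrays. Against control, fewer of the 33 and fewer of all genes passed without TAL-ADH 70 mM run 2.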

How the data were processed

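The deposited scanner output gives the Cy3 intensity of each spot, from which background and spatial trends were removed within the array, per the file headers, by Agilent Feature Extraction 10.1.1.1, with spot marks as other values. The authors' value table is in log2 units, with scaling and centring unstated. Scanner values brought to the 75th percentile and to each probe's median over the 12 arrays came within 0.00594 to 0.0112 log2 at most per array, and its column medians were -0.167 to 0.0547. It is thus no independent processing. Feature Extraction and its version also stand in the submitters' processing notes.

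From the scanner intensities, log2 processed signal was averaged over the unmarked spots of the 7 per probe, and log2 of the array's 75th percentile over gene spots was subtracted. That percentile ranged from 2535 to 7414 intensity units. A probe was detected where over 50% of its spots were well above background, and a gene was kept if 1 or more groups had it detected on both arrays. The 6 group means were fitted in R 4.3.3 and limma 3.58.1 (with data.table, version 1.17.8, and jsonlite 2.0.0; figures with matplotlib 3.10.9, numpy 2.4.6 and pandas 2.3.3), with Benjamini-Hochberg adjustment over 6081 genes. The number of arrays limits the precision. Names come from the RefSeq gene table, which matched 5756 probes. Background correction by normexp, tried as an alternative, used the median spot signals, since mean signals are not used here. The fit was tested on simulated data.

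The 33 genes and the pathway lists were chosen with earlier results of these data known. Any of the 33 could be named, and those called in the control strain are described by role; from each pathway list at most the 3 genes with the largest called change are named. Sequences, promoter motifs and coordinates were not used here; which genes are neighbours was read from the RefSeq gene order. Other alternatives were quantile normalization, no filter on dim probes, the median over spots, the deposited values, a run block, single arrays left out and, added after the data were seen, the doubted arrays left out.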

Additional observations from a re-analysis of the deposited data

Results flagged for a closer look

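The furfural change differed between strains in 15 of the 33 genes for TAL against control and in 13 for TAL-ADH against control, by the limma test of the difference itself at an adjusted p under 0.05. Each value is the log2 change with furfural in the named strain minus that in the control strain, 2 arrays per group. For TAL these were, among the regulators, MET32 (-3.88), MET28 (-1.58) and MET30 (-1.84). In sulfate uptake and reduction they were SUL2 (-1.90) and MET16 (-3.05), and in sulfide incorporation and methionine synthase MET17 (-3.66), MET2 (-2.71) and MET6 (-2.31). In transsulfuration they were STR3 (-3.70) and CYS3 (-3.35), in S-adenosylmethionine synthesis and recycling MHT1 (-2.98) and SAM2 (-1.79), and among the permeases MUP3 (-4.19), MUP1 (-3.96) and MMP1 (-2.70). For TAL-ADH they were MET32 (-4.04), MET28 (-2.25) and MET30 (-2.46) among the regulators, SUL2 (-1.87) and MET16 (-3.95) in sulfate uptake and reduction, and MET17 (-3.63) and MET2 (-3.37) in sulfide incorporation and methionine synthase. The values were STR3 (-4.03) and CYS3 (-3.99) in transsulfuration, MHT1 (-2.52) in S-adenosylmethionine synthesis and recycling, and MUP3 (-4.70), MUP1 (-4.29) and MMP1 (-2.64) among the permeases. All 28 values are negative, with adjusted p from 0.000787 to 0.0385. Not every call held in all 19 alternatives. For TAL those of SUL2, SAM2, MET2, MET6, MET16, MMP1, MET28 and MET30 were lost in some of them. For TAL-ADH those of SUL2 and MMP1 were. The 28 values overlap in the arrays they use. They share the 4 control arrays, and each value uses a pair of arrays that did not group by its labelled dose, the TAL 0 mM pair or the TAL-ADH 70 mM pair, whose part in these differences was not tested.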

How the results depend on the processing

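With 2 arrays a group, 1 array can decide a call. The counts of genes called, of 33, with 1 array left out ran from 17 to 24 for furfural in the control strain, 16 to 22 for TAL minus control at 0 mM, 15 to 24 for TAL-ADH minus TAL at 0 mM, 15 to 23 for TAL-ADH minus control at 70 mM and 19 to 24 for TAL-ADH minus TAL at 70 mM. They ran from 7 to 16 for the difference of TAL from control in the furfural change, 11 to 15 for that of TAL-ADH, and 0 to 4 for furfural over the 3 strains, and were 0 throughout for the other comparisons. Furfural over the 3 strains gave 10 with a slide term, against 0, but that estimate holds no comparison of doses within 1 strain. Without the 4 doubted arrays the furfural term over the 3 strains was not fitted. The control strain alone then has both doses, and furfural in the control strain gave 22 of the 33, where 29.7% of all genes were called. No direction reversed among the 143 calls of a gene in a comparison. Of them 5 were lost with normexp, 9 with quantile normalization, 1 without the filter on dim probes and 0 with the deposited values or the median over spots. Fitting only the 4 arrays of the 2 groups compared lost 9 of the 115 calls it covers. Leaving out 1 array lost 159 of 1716. Quantile normalization moved the median change of all genes with furfural in the control strain from -0.19 to -0.06. Of the 33, 20 were then called, all higher, where 799 of 6081 genes were higher and 985 lower. MET22, CYS4, MET1 and SAM3 were lost and MET3 gained. Quantile normalization also moved the median of TAL-ADH minus control at 70 mM from 0.21 to 0.05. It moved that of the TAL-ADH difference in the furfural change from 0.16 to 0.06. Normexp moved it from -0.08 to 0.06 for furfural in TAL, from 0.02 to 0.17 for TAL minus control at 70 mM, from 0.10 to -0.04 for TAL-ADH minus TAL at 70 mM, from 0.08 to 0.25 for the TAL difference in the furfural change and from 0.07 to -0.09 for TAL-ADH minus TAL in it. Over the 15 pairs of groups, the deviations of same-numbered runs had r of 0.0437 to 0.861 across genes, with 14 of 15 over 0.1. All were positive, so same-numbered runs deviated in part alike. The labels do not say what they share, so this does not establish a pairing of cultures, and the main fit has no run term. The run number as a block lost none of the 143 calls, and the counts became 28, 23, 25, 25, 26, 16 and 19 in place of 23, 22, 24, 23, 23, 15 and 13, in the order above. Over all genes the share called rose as well. In the same order it became 50.2%, 42.9%, 41.2%, 51.5%, 47.1%, 22.4% and 36.4%, in place of 35.5%, 28.4%, 25.8%, 36.7%, 31.9%, 10.2% and 19.6%. In the control strain 24 were then higher and 4 lower, with MET4 (limma adjusted p = 0.0447) and SAM1 (0.00436) gained as higher and MET7 (0.00433), STR2 (0.0143) and SAM4 (0.0382) as lower. In TAL minus control at 70 mM the replicate block called 3 genes in place of 0, MET3 higher (limma adjusted p = 0.0238) and MUP1 (0.0257) and MMP1 (0.0440) lower, where 5.89% of all genes were called. The promoter motif search was not run.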
